A study of Rattus norvegicus with 12 samples.

Results

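The genes described here encode subunits of the GABA-A receptor, 7 of the 17494 genes in the deposited table of counts. They were chosen by gene name from a list of 4 alpha subunits (Gabra2, Gabra3, Gabra4 and Gabra5), 2 beta subunits (Gabrb1 and Gabrb2) and the delta subunit (Gabrd), and the table holds 12 other subunit genes of the receptor. All 7 passed the filter on low counts, which 12325 genes passed. RNA came from 12 wild-type (WT) male Long Evans rats, each exposed to 3 blasts, given 1 per day, at 10 weeks of age. Of these, 6 rats ate chow with boldine, a plant alkaloid that blocks connexin hemichannels, from week 2 after the blasts (blast-boldine), and 6 ate standard chow (blast-controls). Tissue was taken 29 weeks after the blasts, and both groups carried the injury, and rats without blast exposure were not analysed here. The tissue is labelled brain, and the study's methods name it as hippocampus. The comparison asked whether boldine in the diet of blast-exposed rats was accompanied by other RNA levels of these subunits.

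GABA-A receptors are pentameric chloride channels that open when GABA binds between an alpha and a beta subunit, and they carry most fast inhibition in the forebrain. The alpha subunit and the presence of a gamma or a delta subunit set where the receptor sits and how it behaves. Receptors with α2 are found at synapses and on the axon initial segment of hippocampal pyramidal cells, whereas those with α5 in pyramidal cells, and those with α4 and δ in dentate granule cells, lie largely outside synapses and carry tonic inhibition.

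The counts summed to between 10148474 and 40850106 in 11 libraries and to 74008 in the library of blast-control rat 6. In rat 6 a single count was worth 15.8 CPM (counts relative to the library's total, TMM normalized), and the 3 counts taken as the detection floor made 47.5 CPM. In the other libraries 3 counts were at most 0.307 CPM, counting error alone being considered. The suffixes in the library names divide the rats into 2 series of 6 libraries. Series A holds rats 1, 7 and 9 (blast-controls) and 20, 32 and 35 (blast-boldine), and series B holds rats 4, 5 and 6 (blast-controls) and 12, 17 and 19 (blast-boldine). This assignment is inferred from names, not stated by the labels, and among the 4 in which each suffix occurs 1 time per series and rat numbers rise with the suffix, it was the one that accounted for most (95.1%) of the first principal component of 12529 genes in 11 libraries. Treatment accounted for 1.53% of that component. Results are given with and without rat 6, and within the series. Summed levels of 5 markers of CA1 pyramidal cells lay between 666 and 941 CPM in blast-boldine rats and between 858 and 1141 CPM in blast-controls without rat 6. For the 4 dentate granule cell markers these ranges were 357 to 473 CPM and 310 to 445 CPM.

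In the annotation of the deposited table (mRatBN7.2), 3 of the 7 genes are neighbours on chromosome 14. Gabrb1 lies at chr14:36080391-36548940 on the minus strand and Gabra4 at chr14:36590782-36665851 on the plus strand, so that they stand head to head with 41.8 kb between them. Gabra2 follows at chr14:37097279-37228975 on the plus strand, 431 kb after Gabra4. Gabra3 lies at chrX:150261607-150501566 (minus strand), Gabra5 at chr1:108268776-108380888 (minus strand), Gabrb2 at chr10:26938240-27150437 (plus strand) and Gabrd at chr5:165958509-165970407 (minus strand). Gabrd is the shortest of them, with 11.9 kb from start to end, and Gabrb1 the longest, with 469 kb. Counts were made on exons, of which the annotation holds between 1425 bases (Gabrb2) and 2569 bases (Gabra5) per gene. No exon of the 7 overlapped an exon of another gene in the table.

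RefSeq promoter sequences, from 250 bases before to 50 bases after the gene start in the later build GRCr8, were matched for 6 of the 7 genes. Those of Gabrd, Gabra3 and Gabrb1 are printed 5′ to 3′ because Gabrd and Gabra3 differed most between the series of library names and Gabrb1 differed in the opposite direction. They are at chr5:171252660-171252959, chrX:155543821-155544120 and chr14:36902844-36903143, all on the minus strand. Capitals mark the GC box, GGGCGG on either strand, and the rest is in lower case.
Gabrd: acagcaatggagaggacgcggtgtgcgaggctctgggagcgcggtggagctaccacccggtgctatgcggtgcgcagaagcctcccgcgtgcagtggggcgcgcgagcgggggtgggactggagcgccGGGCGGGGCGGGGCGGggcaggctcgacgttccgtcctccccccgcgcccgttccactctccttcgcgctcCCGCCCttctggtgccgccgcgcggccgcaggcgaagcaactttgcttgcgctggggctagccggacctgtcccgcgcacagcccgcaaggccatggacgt
Gabra3: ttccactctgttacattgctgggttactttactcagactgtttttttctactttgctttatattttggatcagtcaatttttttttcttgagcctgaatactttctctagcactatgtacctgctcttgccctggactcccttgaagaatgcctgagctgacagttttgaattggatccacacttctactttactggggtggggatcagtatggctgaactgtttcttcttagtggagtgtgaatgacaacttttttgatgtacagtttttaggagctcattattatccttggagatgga
Gabrb1: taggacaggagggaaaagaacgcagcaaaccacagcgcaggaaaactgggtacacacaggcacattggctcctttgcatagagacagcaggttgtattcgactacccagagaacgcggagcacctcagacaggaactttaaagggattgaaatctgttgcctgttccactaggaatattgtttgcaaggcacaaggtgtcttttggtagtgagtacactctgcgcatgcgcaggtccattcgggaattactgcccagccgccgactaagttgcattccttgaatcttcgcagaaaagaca
The promoter of Gabrd was 73.7% G and C with 40 CpG dinucleotides, that of Gabrb1 was 49.3% with 11, and that of Gabra3 was 39.3% with 0. The median over 33469 promoters was 51.7%. Gabrd held 4 GC boxes, of which 3 overlap end to end by 1 base at 122, 117 and 112 bases before the start and 1 is on the opposite strand 51 bases before it. A GC box was present in 33.1% of all promoters, and Gabra4 and Gabra5 held 1 each. The cAMP response element TGACGTCA, present in 1.83% of all promoters, and the EGR site GCGTGGGCG, present in 0.544%, were searched on both strands, matches of different motifs being allowed to overlap, and neither was found in the 6 windows. These matches describe the letters only.

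Levels of different genes were set side by side as CPM per kb of exon, which corrects for annotated exon length only. On this scale Gabra2 was highest, with 102 ± 11 CPM per kb (SD, n = 11 rats, rat 6 left out). Gabra5 followed with 85.1 ± 14.1, Gabrb1 with 64.6 ± 7.07, Gabra4 with 61.5 ± 6.01 and Gabrb2 with 54.9 ± 3.91 CPM per kb. Gabrd, with 19.9 ± 4.98, and Gabra3, with 14.4 ± 4.44 CPM per kb, were lowest. The first 5 genes lay between the 85.1 and the 94.1 percentile of the 12325 genes, whereas Gabrd stood at the 57.9 percentile and Gabra3 at the 48.0 percentile. Gabra2 exceeded Gabra5 in 11 of 11 rats, by 1.02 to 1.43 times, Gabrb2 exceeded Gabrd in 11 of 11, and Gabrd exceeded Gabra3 in 11 of 11. Other neighbours in this order changed places in some rats: Gabra5 was above Gabrb1 in 9 of 11 rats, Gabrb1 above Gabra4 in 7, and Gabra4 above Gabrb2 in 8. The place of Gabrb1 went with the series of library names: it was above Gabra4 in 2 of 6 rats of series A (59.6 ± 3.67 against 64.0 ± 5.52 CPM per kb) and in 5 of 5 rats of series B (70.5 ± 5.14 against 58.6 ± 5.69 CPM per kb). Gabra5 was above Gabrb1 in 6 of 6 rats of series A and in 3 of 5 of series B. Gabra4 and Gabrb2 changed places in both series, with Gabra4 above in 4 of 6 rats of series A and in 4 of 5 of series B.

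**Figure D1:**
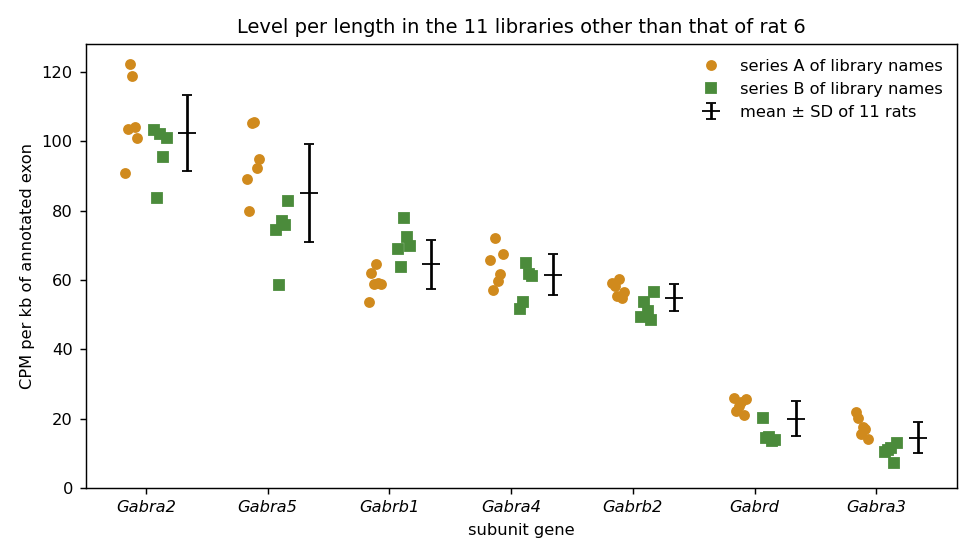
Level of each subunit gene in CPM per kb of annotated exon (y axis) for 11 rats, with circles for series A, squares for series B, and the mean and SD beside them. Gabra2 (mean 102) is highest and Gabrd (19.9) and Gabra3 (14.4) are lowest, and for Gabrd and Gabra3 every square lies below every circle.

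As a share of the summed level per length of the 7 genes, Gabra2 took 25.4 ± 1.37%, Gabra5 21.0 ± 1.92%, Gabrb1 16.2 ± 2.54%, Gabra4 15.3 ± 1.12% and Gabrb2 13.7 ± 1.01% (SD, n = 11). Gabrd took 4.92 ± 1.02% and Gabra3 3.56 ± 0.993%. The sum itself was 409 ± 25.7 CPM per kb in blast-boldine rats (n = 6) and 396 ± 42.0 CPM per kb in blast-controls without rat 6 (n = 5), a difference smaller than either SD.

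Between treatments, none of the 7 subunit genes differed beyond the spread between rats. In edgeR's quasi-likelihood test on 12 rats, 0 of 7 had an adjusted p under 0.05, where 0.0% of the 12325 genes tested had one, and 0 of 7 had an unadjusted p under 0.05, where 132 genes (1.07%) had one. DESeq2, run without the filter on low counts, gave 85 of 15690 genes at an unadjusted p under 0.05. By limma-voom there were 115 of 12325 genes, and each gave 0 genes at an adjusted p under 0.05. Without rat 6 the count of the 7 at an unadjusted p under 0.05 was again 0, beside 1.4% of 12529 genes, and with the series as a covariate as well it was 0, beside 5.35%. The ranges of the 2 groups overlapped for all 7 genes. Over 12325 genes 0.0811% did not overlap with all 12 rats and 0.146% without rat 6. The median log2 fold change of the 7 (blast-boldine against blast-control, here and throughout) was 0.09 with 12 rats and 0.04 without rat 6, beside 0.00 over all genes tested in both. With 1 library per rat, these p-values are set against the spread between libraries. In fits without the series as a covariate, that spread includes the difference between the series. With all 12 rats it also includes the counting error of rat 6. In RNA from whole tissue, fewer cells of a type and less RNA per cell cannot be told apart.

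**Figure D2:**
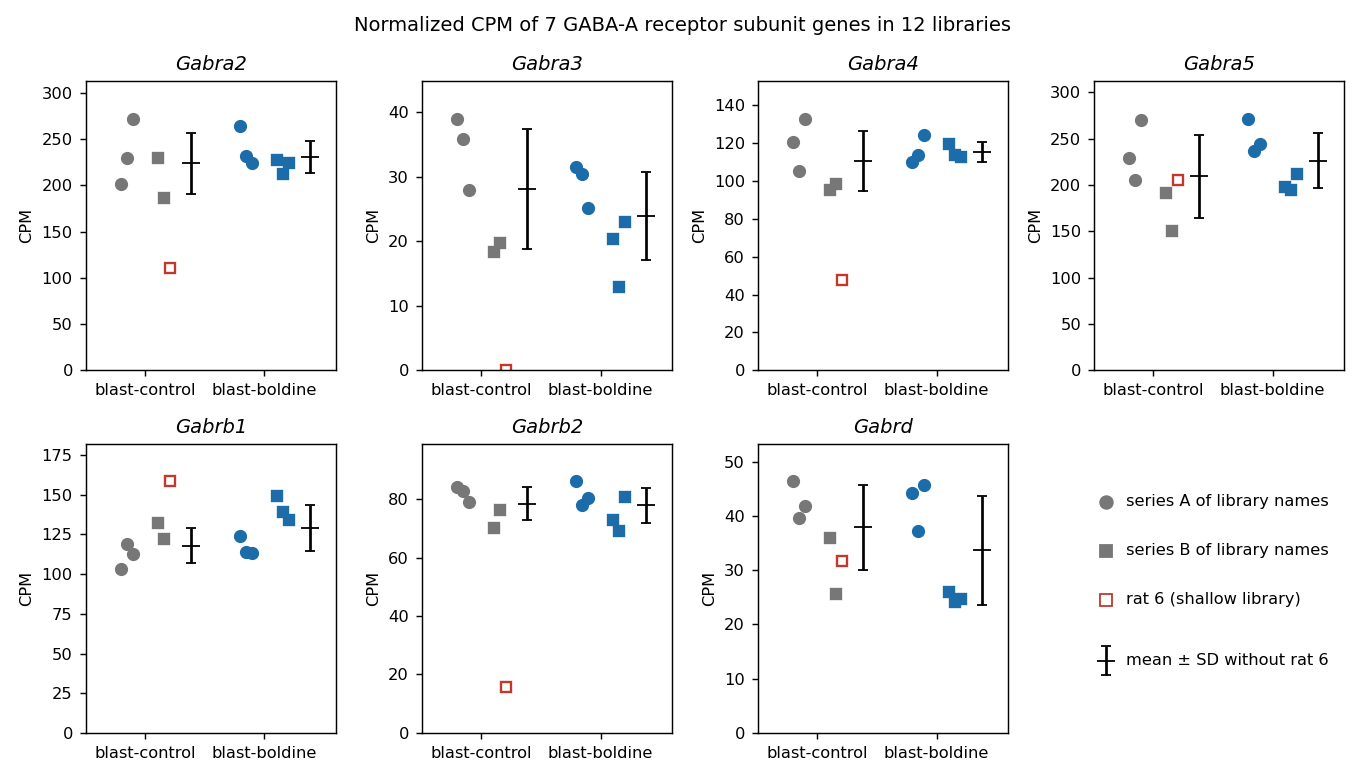
Normalized CPM (y axis, from 0) of each subunit gene in 12 libraries, 1 point per rat, by treatment, with circles for series A, squares for series B, an open red square for rat 6, and the mean and SD without rat 6. The groups overlap in every panel, and the points of rat 6 rest on 0 (Gabra3) to 13 counts (Gabra5).

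Gabra2 encodes the α2 subunit of synaptic and axon initial segment receptors. Its level lay between 213 and 264 CPM in blast-boldine rats, with a median of 226 CPM. In blast-controls it was 202 CPM in rat 1, 230 in rat 4, 186 in rat 5, 230 in rat 7 and 272 in rat 9, and 111 CPM, from 7 counts, in rat 6. Both the highest and the lowest values were blast-controls, and the blast-boldine rats lay between them. The mean was 231 ± 17.5 CPM (SD, n = 6) against 224 ± 32.9 CPM (n = 5, without rat 6). The log2 fold change was 0.12 (SE 0.16, edgeR adjusted p = 1) with 12 rats and 0.04 (SE 0.11) without rat 6. By the exact two-sided permutation test of the group means of log2 CPM, p was 0.305 with 12 rats and 0.613 without rat 6, where the smallest p these designs allow is 0.00216. Rat 6 weighs as much in this test as any other rat, and the differences of means were 0.22 and 0.05.

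Gabra3 encodes the α3 subunit, which in the adult forebrain is found in fewer cell types than α1 or α2. It ranged from 12.9 CPM to 31.4 CPM in blast-boldine rats, with a median of 24.1 CPM. The blast-controls had 39.0 CPM in rat 1, 18.3 in rat 4, 19.7 in rat 5, 35.8 in rat 7 and 27.9 in rat 9. In rat 6 there were 0 counts, which allows up to 47.5 CPM, more than any rat had, so that library holds no information on this gene. The 2 highest values were blast-controls of series A and the lowest was rat 17, blast-boldine, of series B. The log2 fold change was -0.20 (SE 0.28, edgeR adjusted p = 1) with 12 rats and -0.24 (SE 0.26) without rat 6. The exact permutation test gave a p of 0.777 with all rats and 0.455 otherwise. The difference of mean log2 CPM was 1.08 with the value of rat 6, a log of 0 counts, and -0.23 without it.

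Gabra4 encodes α4, the partner of δ in dentate granule cells and of γ subunits elsewhere. The blast-boldine rats lay close together, between 110 and 124 CPM, with a median of 114 CPM. The blast-controls had 121 CPM in rat 1, 95.1 in rat 4, 98.5 in rat 5, 105 in rat 7 and 133 in rat 9, and rat 6 had 47.5 CPM from 3 counts. All 6 blast-boldine rats were above the median of the blast-controls, with and without rat 6, but rat 1 was above 5 of them and rat 9 above all 6. The mean was 116 ± 5.23 CPM (SD, n = 6) against 111 ± 16 CPM (n = 5, without rat 6). For Gabra4 the log2 fold change was 0.12 (SE 0.15, edgeR adjusted p = 1), and without rat 6 it was 0.06 (SE 0.10). Exact permutation gave a p of 0.206 with 12 rats and 0.416 without rat 6, for differences of mean log2 CPM of 0.27 and 0.07.

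Gabra5 encodes α5, which is enriched in hippocampal pyramidal cells. It lay between 195 and 272 CPM in blast-boldine rats, with a median of 225 CPM. The blast-controls had 229 CPM in rat 1, 191 in rat 4, 151 in rat 5, 205 in rat 7 and 270 in rat 9, and rat 6 had 206 CPM from 13 counts. The lowest rat was a blast-control of series B, and the 2 highest, rat 20 (blast-boldine) and rat 9 (blast-control), were both of series A. For Gabra5 the log2 fold change was 0.12 (SE 0.15, edgeR adjusted p = 1) with 12 rats and 0.11 (SE 0.15) without rat 6. By exact permutation, p was 0.379 and 0.424.

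Gabrd encodes δ, which takes the place of a gamma subunit in receptors outside synapses. In blast-boldine rats Gabrd fell into separate values by series, with 26.0, 24.2 and 24.6 CPM in rats 12, 17 and 19 of series B and 44.2, 37.3 and 45.7 CPM in rats 20, 32 and 35 of series A. The blast-controls had 46.4 CPM in rat 1, 39.6 in rat 7 and 41.9 in rat 9 of series A and 36.0 in rat 4 and 25.7 in rat 5 of series B, and rat 6 had 31.7 CPM from 2 counts. The 2 lowest rats were blast-boldine, and the highest was a blast-control. For Gabrd the log2 fold change was -0.16 (SE 0.21, edgeR adjusted p = 1) with 12 rats and -0.18 (SE 0.21) without rat 6. In the exact permutation tests p was 0.450 and 0.426.

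Gabrb1 and Gabrb2 encode the beta subunits β1 and β2, which line the channel with the alpha subunits and take part in the GABA site. Gabrb1 ranged from 113 to 149 CPM in blast-boldine rats, with a median of 129 CPM. Its values in blast-controls were 103 CPM in rat 1, 132 in rat 4, 122 in rat 5, 119 in rat 7 and 113 in rat 9, and 158 CPM from 10 counts in rat 6. Without rat 6, 3 of 6 blast-boldine rats, all of series B, were above every blast-control. The log2 fold change of Gabrb1 was 0.09 (SE 0.12, edgeR adjusted p = 1) with 12 rats and 0.12 (SE 0.11) without rat 6, with exact permutation p-values of 0.634 and 0.193.

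Gabrb2 was the steadiest gene per length, with 69.1 to 86.1 CPM in blast-boldine rats and a median of 79.3 CPM. The blast-controls had 84.2 CPM in rat 1, 70.1 in rat 4, 76.4 in rat 5, 82.8 in rat 7 and 79.0 in rat 9. Rat 6 had 15.8 CPM from 1 count, under the floor of 3 counts. The 2 groups covered nearly the same range, with means of 77.9 ± 6.06 CPM (SD, n = 6) and 78.5 ± 5.61 CPM (n = 5, without rat 6). The log2 fold change was 0.06 (SE 0.17, edgeR adjusted p = 1) with 12 rats and changed direction to -0.02 (SE 0.09) without rat 6. Exact permutation p-values were 0.571 and 0.853, for differences of mean log2 CPM of 0.37 with 12 rats and -0.01 without rat 6.

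The intervals show what size of difference these libraries leave unresolved. With 12 rats, the 95% confidence interval of the fold, blast-boldine over blast-control, was 0.859 to 1.38 for Gabra2 and 0.573 to 1.33 for Gabra3. It was 0.873 to 1.36 for Gabra4, 0.862 to 1.36 for Gabra5 and 0.651 to 1.23 for Gabrd. For the beta subunits it was 0.884 to 1.28 (Gabrb1) and 0.807 to 1.34 (Gabrb2). Every interval held 1. Leaving out 1 rat at a time moved the log2 fold changes within these widths: from 0.04 (without rat 6) to 0.21 (rat 9) for Gabra2, from -0.30 (rat 4) to -0.04 (rat 1) for Gabra3, and from 0.06 (rat 6) to 0.20 (rat 9) for Gabra4. The ranges were 0.05 (rat 5) to 0.21 (rat 9) for Gabra5, -0.27 (rat 35) to -0.08 (rat 1) for Gabrd, 0.04 (rat 12) to 0.14 (rat 35) for Gabrb1 and -0.02 (rat 6) to 0.11 (rat 1) for Gabrb2. For Gabra3 it was also -0.08 without rat 17 and -0.09 without rat 7. Without rat 6 and with the series as a covariate, the intervals were narrower and still held 1: 0.915 to 1.18 for Gabra2, 0.724 to 1.12 for Gabra3, 0.938 to 1.19 for Gabra4 and 0.979 to 1.27 for Gabra5. In the same fit they were 0.780 to 1.05 for Gabrd, 0.974 to 1.17 for Gabrb1 and 0.907 to 1.1 for Gabrb2. The series were chosen on these same libraries, so the narrower widths cannot be read apart from that choice. In that fit the lowest unadjusted p of the 7 was that of Gabra5 (log2 fold change 0.16, SE 0.09, edgeR adjusted p = 0.898).

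**Figure D3:**
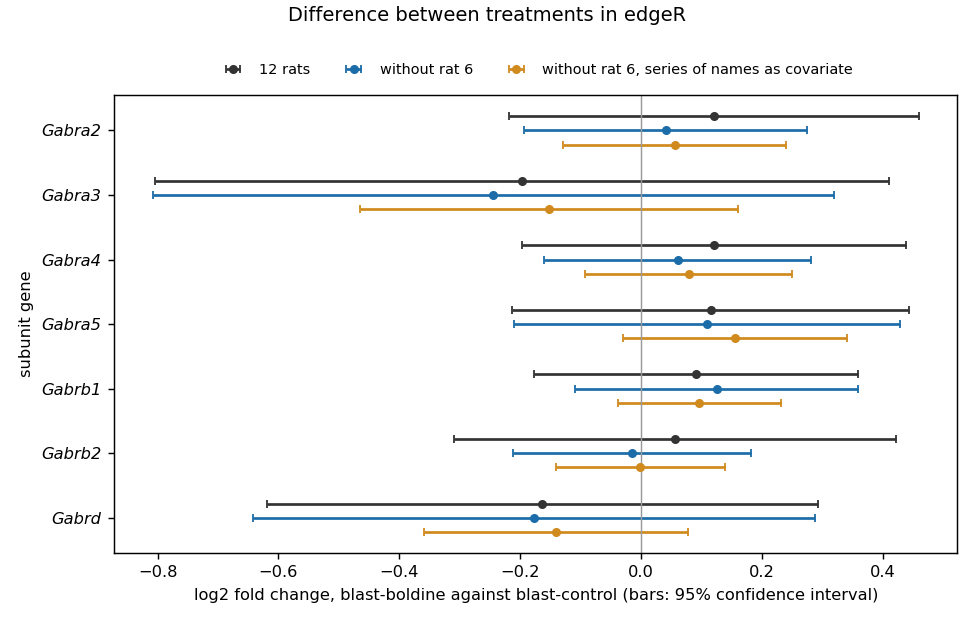
Log2 fold change of each subunit gene between treatments (x axis, blast-boldine against blast-control) in edgeR, with 95% confidence intervals, for 12 rats, without rat 6, and without rat 6 with the series of library names as a covariate. Every interval crosses 0, and the intervals with the series as covariate are the narrowest of the 3 for each gene. The series were chosen on these same libraries.

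In mean log2 CPM over 11 rats, each of the 7 subunit genes differed more between the 2 series of library names than between treatments. Since the series were chosen by how well they account for the libraries' main axis of variation, these differences are given without a test. In series B, 6 of 7 genes had a lower mean log2 CPM than in series A (rat 6 left out, 6 and 5 rats), and Gabrb1 had a higher one. For Gabra3 the difference was -0.75 on the log2 scale, with means of 31.6 ± 5.06 CPM in series A and 18.8 ± 3.73 CPM in series B (SD, n = 6 and 5). For Gabrd it was -0.65, with 42.5 ± 3.58 CPM and 27.3 ± 4.93 CPM. In these 2 genes all 5 rats of series B were below all 6 of series A. Gabra5 was lower by a log2 difference of -0.36 and Gabrb2 by -0.15, each with 4 of 5 rats below every rat of series A. Gabra2 and Gabra4 differed by -0.13 each. Gabrb1 was higher by 0.24, with 114 ± 7.05 CPM in series A and 135 ± 9.87 CPM in series B, and 4 of 5 rats were above every rat of series A. As a share of the summed level per length, Gabrb1 took 14.1 ± 0.880% in series A and 18.7 ± 0.798% in series B. Such differences were common: over 12325 genes, 49.1% did not overlap between the series. The median absolute difference over these genes was 0.47, and of the 7 subunit genes only Gabra3 and Gabrd exceeded it. The share of all genes that differed more between the series than between treatments is not given here.

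**Figure D4:**
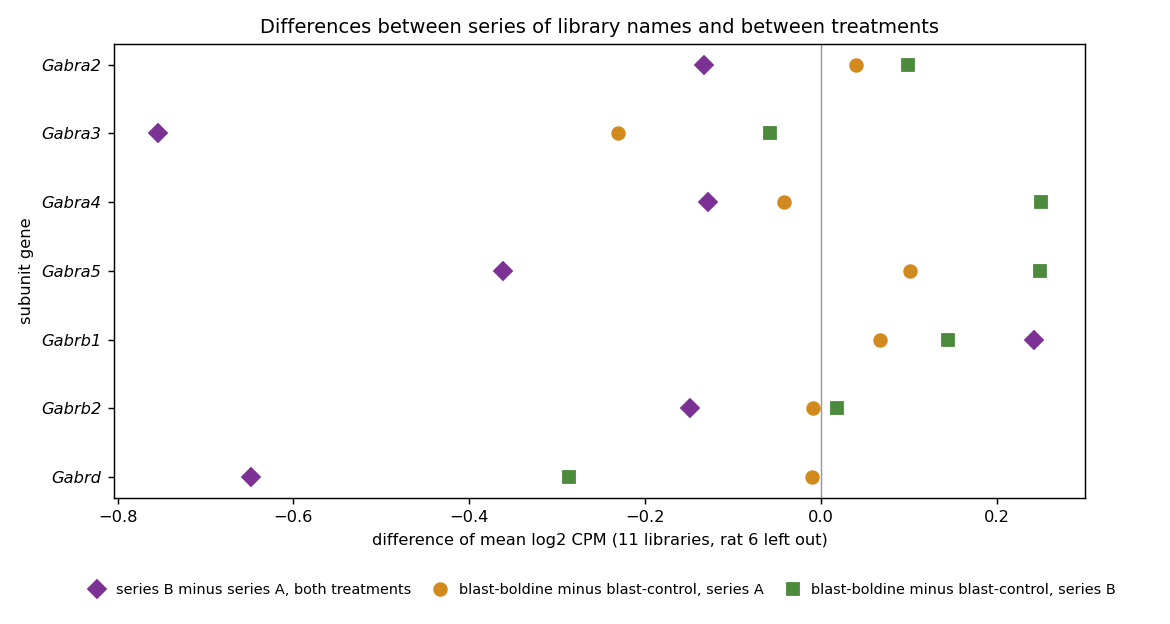
Difference of mean log2 CPM (x axis) for each subunit gene, between series B and series A over both treatments (diamonds) and between blast-boldine and blast-control rats within series A (circles) and within series B (squares), rat 6 left out. The diamonds of Gabra3 (-0.75) and Gabrd (-0.65) lie farthest from 0, and that of Gabrb1 (0.24) lies on the other side.

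Some markers of other cells and regions also differed between the series. Of 12 lists, the sums of 4 (thalamus, cortex, endothelium and microglia) did not overlap between the series, and those of the other 8 did. Among 12325 single genes, 49.1% did not overlap between the series. Summed over 5 thalamic markers, series B was 1.58 times series A, and over 4 endothelial markers it was 2.33 times. It was 0.491 times for 5 microglial, 0.622 times for 5 oligodendrocyte and 0.711 times for 6 CA2 and CA3 pyramidal cell markers. For the 4 dentate granule cell markers it was 1.07 times, for the 5 CA1 markers 0.920 times and for the 8 interneuron markers 0.872 times. Excitatory neuron markers gave 1.33 times, cortical markers 1.24 and astrocyte markers 0.821. No list had a marker at 0 in all 11 libraries. Between treatments the ranges of these sums overlapped for all lists, with ratios of means from 0.867 (CA1) to 1.18 (endothelium) for the lists other than choroid plexus. Choroid plexus markers were high in some libraries and low in others: their sum was over 600 CPM in 3 of 6 blast-boldine rats and 2 of 5 blast-controls and under 60 CPM in the rest, so that the medians, 412 and 14.2 CPM, lay far apart. By series, the medians were 348 CPM in series A and 14.2 CPM in series B. The part of these cells in the levels of the subunit genes was not tested.

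Treatment differences of mean log2 CPM were also computed within the series. In series A, with 3 rats of each treatment, they were 0.04 for Gabra2, -0.23 for Gabra3, -0.04 for Gabra4, 0.10 for Gabra5, 0.07 for Gabrb1, -0.01 for Gabrb2 and -0.01 for Gabrd. In series B, with 3 blast-boldine rats and 2 blast-controls, they were 0.10, -0.06, 0.25, 0.25, 0.14, 0.02 and -0.29 in the same order of genes. Gabra2, Gabra5 and Gabrb1 were higher in blast-boldine rats, and Gabra3 and Gabrd lower, in both series, whereas Gabra4 and Gabrb2 differed in direction. In series B all 3 blast-boldine rats were above both blast-controls for Gabra4, Gabra5 and Gabrb1, where 22.4% of 12325 genes did not overlap between these rats. For Gabra4 the difference in series B was larger than that between the series. The interaction of treatment and series in edgeR gave an unadjusted p under 0.05 for 1 of the 7, Gabra4 (0.0442), beside 707 of 12529 genes (5.64%), and 0 genes had an adjusted p under 0.05. For Gabra4 the log2 difference between series was 0.31 (SE 0.14, 95% confidence interval 0.01 to 0.62, edgeR adjusted p = 0.881), and for Gabrb2 it was 0.05 (SE 0.13, adjusted p = 0.971). Permuting rats within the series, without rat 6, gave exact two-sided p-values of 0.460 for Gabra2, 0.450 for Gabra3, 0.215 for Gabra4, 0.0950 for Gabra5, 0.0850 for Gabrb1, 0.925 for Gabrb2 and 0.225 for Gabrd, over 200 assignments. The tests within the series rest on series chosen on these same libraries. In all, 28 permutation tests were run on the 7 genes, and none gave a p under 0.05 before any adjustment.

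Over the 11 libraries, with log2 CPM centred within each series, 10 of 21 pairs of subunit genes had a Pearson r above 0, and the median was -0.03. The median r of all genes compared with a subunit gene was 0.01. Without centring, where the difference between the series enters, all 15 pairs without Gabrb1 had an r above 0 and all 6 pairs with Gabrb1 an r under 0. The highest centred values were those of Gabra2 with Gabra5 (r = 0.77, uncentred 0.79), Gabra3 with Gabrb2 (0.71, uncentred 0.88) and Gabra2 with Gabrb1 (0.67, uncentred -0.01). Among 8213 genes with a mean log2 CPM of at least 4, the pattern most like that of Gabra2 was that of Ube2d3 (r = 0.97), followed by Cnr1, the CB1 cannabinoid receptor (0.95), and Cdc42 (0.94). Those most like Gabra3 were Fxyd6 (0.90), Raph1 (0.88) and Pcgf5 (0.87), and those most like Gabra4 were Stk35 (0.96), Zfp397 (0.94) and Lyst (0.89). For Gabra5 they were Vps29 (0.97), Ccng1 (0.94) and Ppp6c (0.94), and for Gabrd they included Pop5 (0.92) and Pex16 (0.91). For Gabrb1 they were Pcmtd2 (0.88), Pnp (0.88) and Lypla1 (0.87), and for Gabrb2 they were Prrg1 (0.87), Cntnap4 (0.85) and Chmp1b (0.85). Without centring, 5 of these 21 genes had an r under 0 over the same libraries: Raph1 (-0.66), Zfp397 (-0.24), Lyst (-0.09), Pcmtd2 (-0.59) and Lypla1 (-0.65). That of Pcgf5 was 0.12. These correlations share the same 11 libraries, their depth and their normalization, and the highest of so many r over so few libraries are high by selection.

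The GABAergic genes around the receptor gave a similar picture. Of 38 further genes in the table, 33 passed the filter, 0 had an adjusted p under 0.05 in edgeR, and 1 of 33 was higher and 0 lower at an unadjusted p under 0.05, beside 1.07% of all genes tested. With the series as a covariate and without rat 6, 1 of 34 was higher and 2 lower, beside 5.35% of all genes. Their median log2 fold change was 0.02 with 12 rats (21 above 0, 12 below), -0.03 without rat 6 (14 above, 20 below) and -0.01 with the series as well. The 12 other GABA-A receptor subunit genes, of which 7 passed the filter, had log2 fold changes between -0.06 and 0.13, and without rat 6, when 8 passed, between -0.44 and 0.06, with 0 at an unadjusted p under 0.05 in either fit. The 14 genes of receptor anchoring and trafficking lay between -0.25 and 0.16 with 12 rats and between -0.31 and 0.12 without rat 6. With the series as well they lay between -0.32 and 0.09. Of these, Trak2 (a kinesin adaptor) had -0.04 with 12 rats and -0.02 without rat 6. Gabarapl1 (a relative of the receptor-associated protein GABARAP) had -0.09 with 12 rats and -0.04 without rat 6. Of 4 genes of chloride balance, Wnk1 (a kinase that senses chloride) had 0.02, Slc12a5 (the chloride exporter KCC2) -0.16 and Slc12a2 (the importer NKCC1) 0.11 with 12 rats. Without rat 6 the values were 0.02 for Wnk1, -0.11 for Slc12a5 and 0.07 for Slc12a2. None of these 5 named genes had an unadjusted p under 0.05 with 12 rats or without rat 6. In the fit with the series and without rat 6, Slc12a5 (-0.17) and Hap1 (-0.18), a trafficking adaptor of the receptor, had unadjusted p-values of 0.0316 and 0.0387 in edgeR, with an adjusted p of 0.898 each.

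Of 8 genes of GABA synthesis, transport and breakdown, Gad1 (glutamate decarboxylase) had a log2 fold change of 0.13 with 12 rats and 0.05 without rat 6, and Aldh5a1 (succinic semialdehyde dehydrogenase) -0.17 and -0.15. The single gene at an unadjusted p under 0.05 was Slc6a13, a GABA transporter of the meninges and vessels. Its level lay between 2.60 and 8.96 CPM in blast-boldine rats, with a median of 3.55 CPM. In blast-controls Slc6a13 was 2.94 CPM in rat 1, 2.07 in rat 4, 2.76 in rat 5, 2.10 in rat 7 and 1.92 in rat 9, and 15.8 CPM from 1 count in rat 6. Of the blast-boldine rats 5 of 6 were above all 5 of these blast-controls, and the 2 highest, rats 32 and 35, had 8.96 and 7.02 CPM. The log2 fold change of Slc6a13 was 0.98 (SE 0.35, edgeR adjusted p = 1) with 12 rats and 1.01 (SE 0.34) without rat 6. With the series as a covariate and without rat 6 it was 1.03 (SE 0.296, edgeR unadjusted p = 0.00415, adjusted p = 0.898). Slc6a13 did not pass the adjustment over all genes in any of these fits. Summed choroid plexus markers lay between 7.77 and 1104 CPM in blast-boldine rats and between 13 and 1147 CPM in these blast-controls, with medians of 412 and 14.2 CPM. Rats 32 and 35, the 2 highest in Slc6a13, had 998 and 50.2 CPM of these markers. Blast-control rat 7, with 2.10 CPM of Slc6a13, had 1147 CPM of them. The part of choroid plexus in the level of Slc6a13 was not tested.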

How the data were processed

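Libraries were made from total RNA, depleted of ribosomal RNA, with a stranded kit, 1 per rat. The deposited values are raw counts: per the methods and headers, the authors removed duplicates with HTStream 1.3.3, aligned reads to mRatBN7.2 with STAR 2.7.11b and counted them by strand on exons with featureCounts (Subread 2.0.1), whose command does not ask for reads with several alignments to be counted.

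Groups came from the labels. Counts were tested with edgeR 4.0.16 in R 4.3.3 (quasi-likelihood test, TMM normalization, filterByExpr at a minimum of 10 counts, treatment as the only term, two-sided, Benjamini-Hochberg adjustment over all genes kept at a threshold of 0.05). CPM are counts relative to the TMM-normalized library size, on the log2 scale with a prior count of 2. The group means of log2 CPM were compared by exact permutation tests. The alternatives were DESeq2 1.42.0, limma-voom (limma 3.58.1), other size factors, no filter, another prior count, a trend with gene length, the series of library names as a covariate, and leaving out each rat. The methods were tested on simulated data, of which no result is given here. Cell marker sums add the CPM of each list.

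The members and lists were chosen with earlier results of these data known. Named were all 7 members, the 3 most abundant pathway genes of each group and those with an unadjusted p under 0.05, and the 3 genes most like each member. Hap1 was named after its values were seen, and some genes that this rule names are not reported here. The 12 other GABA-A receptor subunits are given as counts and ranges only. RefSeq promoters (GRCr8) are of another build than the counts, and no coordinates were converted. Protein sequences and a correction for GC content were not used here.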

Additional observations from a re-analysis of the deposited data

Results flagged for a closer look

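Among the subunit genes, 3 had 1 library far from the rest of its group of 6, out of 14 groups of values examined, a check by which chance marks about 1 in 20 groups. All were the library of blast-control rat 6, with 74008 counts in all. For Gabra3 its log2 CPM was -3.07, from 0 counts. For Gabra4 it was 5.57, from 3 counts, and for Gabrb2 it was 4.0, from 1 count. The gap to the nearest rat was 0.870, 0.674 and 0.890 of the group's range, against a critical value of 0.625. The other 4 genes had 2 to 13 counts in this library. Values of 3 counts or fewer were at or under the smallest level taken as detected there, 47.5 CPM.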

How the results depend on the processing

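Of 259 values recomputed under 24 other settings, 245 kept their direction, side of the threshold or size. The count of genes with an adjusted p under 0.05 was 0 in every setting run, for the 7 subunit genes and for all genes, and the count of subunit genes with an unadjusted p under 0.05 was 0 in every setting. The count of all genes with an unadjusted p under 0.05, 132 in edgeR on 12 rats, was 254 without a filter on low counts. DESeq2, which ran without that filter on 15690 genes, gave 85, so test and filter changed together. With the series as a covariate and without rat 6, DESeq2 gave 736 of 15689 genes. In edgeR the count was 474 with the series of library names as a covariate and 670 with the series and without rat 6. Leaving out 1 rat at a time gave 85 to 214 genes, with 85 without rat 12, 85 without rat 17, 87 without rat 1 and 214 without rat 5, and the cause was not tested. The log2 fold change of Gabrb2 changed direction without rat 6 (-0.0154, where leaving out each rat gave -0.0154 to 0.106) and with the series as a covariate and without rat 6 (-0.0013). Leaving out rat 6 also turned the difference of mean log2 CPM of Gabrb2 (exact permutation p = 0.8528) and of Gabra3 (exact permutation p = 0.4545, and 0.45 within the series). In Gabra3 and Gabrb2 rat 6 has 0 and 1 counts. Rat 6 limits the depth, since 3 counts there stand for 47.5 CPM, above the level of Gabra3 and Gabrd in every other library. No paired analysis was possible because the groups share no replicate numbers.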
